A study of Mus musculus with 34 samples.

Results

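Livers in which the transcriptional repressor Bcl6 had been targeted were compared directly with livers in which the insulin receptor substrate Irs1 had been targeted. The members are the 5 libraries labelled Bcl6 KO and the 5 labelled Irs1 KO, taken by their labels, 10 of the 34 liver libraries of the study. All mice were C57BL/6 animals homozygous for TetO-Cas9, a Cas9 gene switched on by tetracycline derivatives, and homozygous for Rosa-rtTA, the transactivator that does the switching. Each received a guide RNA in an adeno-associated virus (AAV) and was fed a Western Diet for 3 months. The guides targeted Bcl6 or Irs1. In 6 control livers, shown beside the results as background, they targeted GFP (4 livers, sgGFP) or LacZ (2 livers, sgLacZ), which mice do not carry. The controls thus share the Cas9, the transactivator, the virus and the diet with both knockout groups. Sex and age are not given in the labels. Whole-liver RNA was measured, so each library also holds RNA of cells that were not edited and of cell types other than hepatocytes, and fewer cells of a type cannot be told apart from less RNA per cell.

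BCL6 is a zinc-finger protein that binds DNA and recruits corepressors. In liver it is known for opposing STAT5, the factor through which growth hormone sets the differences between male and female mouse livers. Growth hormone is secreted in pulses in males and more evenly in females, and several families of cytochrome P450 enzymes, sulfotransferases, urinary proteins and transporters follow that pattern. IRS1 is an adaptor that carries the signal of the insulin and IGF1 receptors to PI3 kinase and AKT, which restrain glucose production and favour lipid synthesis.

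The files gave FPKM, which are fragment numbers divided by transcript length and by the size of the library. The steps between low values implied 2530000 to 2860000 counted fragments for the Bcl6 KO libraries and 2470000 to 2730000 for the Irs1 KO libraries. All 10 livers expressed Y-linked genes, with Ddx3y at 237 to 274 FPKM in Bcl6 KO and 178 to 282 FPKM in Irs1 KO, while Xist, the RNA of the inactive X chromosome, was at 0.308 to 1.95 and 0 to 1.06 FPKM. Principal component 1 held 37.4% of the variance and separated the groups without overlap. On component 2, with 9.99% of the variance, Irs1 KO liver 1 and Bcl6 KO liver 4 stood apart from the other 8 livers. Below, values are FPKM, a value after ± is the SD over 5 livers for levels and the SE for log2 differences, and a difference is Bcl6 KO minus Irs1 KO on the log2(FPKM + 1) scale.

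The targeted genes came first, as a check of the labels. Bcl6 was at 46.7, 60.4, 52, 62.5 and 100.1 FPKM in Bcl6 KO livers 1 to 5 and at 44.6, 74.9, 157, 34 and 54.8 FPKM in Irs1 KO livers 1 to 5. The groups overlapped, and the difference was -0.02 ± 0.35 (limma, Benjamini-Hochberg adjusted p = 0.980). Irs1 was at 21.3, 19.3, 16.5, 28.1 and 25.3 FPKM in Bcl6 KO and at 35.8, 31, 28.9, 27.9 and 25.4 FPKM in Irs1 KO, with a difference of -0.43 ± 0.17 (adjusted p = 0.111). Neither targeted transcript was thus lower in its own group past the test, and Irs1 was higher on average in the group labelled Irs1 KO. Transcript level does not report small edits made by Cas9, so these values neither check nor contradict the loss of protein. The control livers had 27.1 to 104 FPKM of Bcl6 and 20.2 to 27.6 FPKM of Irs1.

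Of 16623 genes tested, those at 1 FPKM or more in at least 5 of the 10 livers, 2614 differed at an adjusted p under 0.05 (15.7% of those tested). Of these, 1539 were higher in Bcl6 KO (9.26% of genes tested) and 1075 were higher in Irs1 KO (6.47%). At least 2-fold differences were held by 713 genes higher in Bcl6 KO and 296 genes higher in Irs1 KO. The livers of the groups did not overlap for 2169 genes (13% of those tested), of which 1911 also passed the test. The median difference over all tested genes was 0.05. Scaling each library to its median moved that median to -0.05 and gave 1158 genes higher in Bcl6 KO and 1792 higher in Irs1 KO, so that 39.3% of the called genes were higher in Bcl6 KO against 58.9% without that scaling. The balance of small differences therefore depends on scaling, whereas the sex-biased lists below gave 35 and 38 members in their main direction with and without it.

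**Figure D1:**
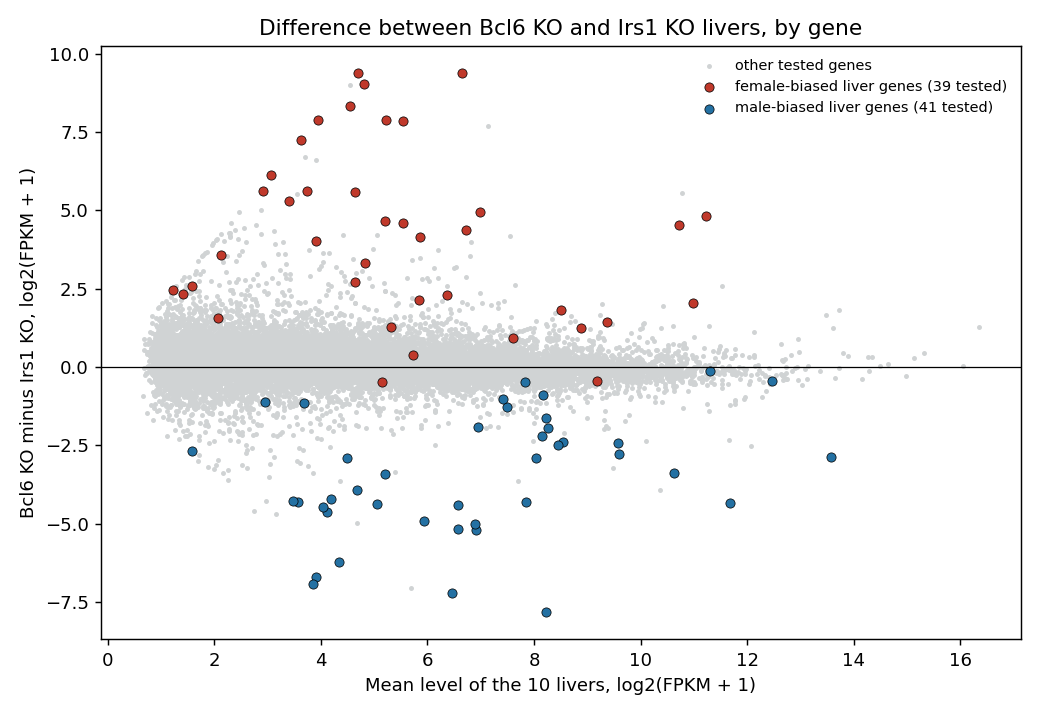
Difference between groups (vertical axis, Bcl6 KO minus Irs1 KO on the log2(FPKM + 1) scale) against mean level over the 10 livers (horizontal axis, log2(FPKM + 1)), 1 point per tested gene. Female-biased genes (red, 39 tested) lie mostly above 0, with 35 past the threshold, and the 41 male-biased genes (blue) lie below 0, with 38 past the threshold.

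The sex-biased lists had the largest median differences of the 40 gene lists. Of 39 tested female-biased genes, 35 were higher in Bcl6 KO and 1, Cyp2c67, was higher in Irs1 KO, and the median difference was 4.16. Of 41 tested male-biased genes, 38 were higher in Irs1 KO and none in Bcl6 KO, and the median was -3.39. Over all tested genes the shares were 9.26% and 6.47%. Every list count below is to be read against these shares, and a count near them is not a result about its list. The 35 hold 10 genes under 1 FPKM in all 5 Irs1 KO livers and the 38 hold 2 genes under 1 FPKM in all 5 Bcl6 KO livers. These passed the filter on low values through 1 group alone and so had to differ, and no p is given for those described below. The lists came from background knowledge of mouse liver and were drawn up with earlier results of these data known. Not past the threshold were 3 female-biased genes, Cyp4a14 (1.45 ± 0.61), Lpl (0.38 ± 0.19) and Ntrk2 (-0.48 ± 0.51), and 3 male-biased genes, Cyp2c29 (-0.11 ± 0.13), Fmo5 (-0.46 ± 0.20) and Nat8 (-1.12 ± 0.84). The call of Cyp2c67, a member of the Cyp2c cluster (-0.45 ± 0.13, adjusted p = 0.0333), was lost on leaving out any of Bcl6 KO livers 2, 3, 4 and 5 or Irs1 KO livers 1, 4 and 5.

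Among female-biased enzymes, Cyp2a4, a steroid hydroxylase encoded at chr7:26307192-26315088 (RefSeq, GRCm38.p6), was at 2883, 2131, 2517, 3145 and 2411 FPKM in Bcl6 KO and at 3.11, 2.59, 0.64, 4.41 and 5.6 FPKM in Irs1 KO, with 24.3 to 78.9 FPKM in the controls. The 5 Bcl6 KO livers lay far above all others and the 5 Irs1 KO livers below every control liver, and the difference between the knockout groups was 9.39 ± 0.30 (adjusted p = 2.75e-09). Cyp3a16, a drug and steroid oxidase, stood at 946, 506, 478, 970.3 and 503 FPKM in Bcl6 KO and 0, 0.954, 0, 0 and 0.435 FPKM in Irs1 KO (9.04 ± 0.27). It was under 1 FPKM in every Irs1 KO liver, so the filter itself fixed that its groups did not overlap. Cyp2c69 had 685, 352, 335, 452 and 345 FPKM in Bcl6 KO and 0.215, 0.229, 0.413, 0.214 and 0.417 FPKM in Irs1 KO (8.34 ± 0.20), and its neighbour on chromosome 19, Cyp2c40, had 707, 432, 586, 775 and 470.1 FPKM and 0.423, 2.25, 2.03, 2.31 and 0.82 FPKM (7.90 ± 0.26, adjusted p = 3.50e-09). Both were near 0 in every Irs1 KO liver and high in every Bcl6 KO liver. Members of the Cyp2c, Cyp3a, Sult2a, Mup and Serpina1 families are near-identical copies, so the split of reads within a family is uncertain.

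Some of these genes were listed at 0 in all 5 Irs1 KO livers, and for them no fold is given. A1bg, the alpha-1B-glycoprotein of plasma, was at 939.6, 477, 632, 882 and 522 FPKM in Bcl6 KO and listed at 0 in every Irs1 KO and control liver. The sulfotransferases Sult2a1 and Sult2a2, which sulfate steroids and bile acids, stood at 131 to 469 FPKM and 35.7 to 123 FPKM in Bcl6 KO. Cyp3a41b stood at 121 to 179 FPKM. These 3 were likewise listed at 0 in all Irs1 KO and control livers. A value of 0 at this depth means that no fragment was counted, not that the gene is silent.

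Secreted and receptor genes of the female pattern differed in the same direction, by less than the P450 genes given above. Prlr, the prolactin receptor, was at 10920, 7089, 5972, 11930 and 6443 FPKM in Bcl6 KO and 432, 193, 282, 424 and 525 FPKM in Irs1 KO (4.53 ± 0.28, adjusted p = 1.17e-06). Irs1 KO livers lay within the range of the controls, 175 to 687 FPKM, and Bcl6 KO livers were above all of them. Hamp2, a relative of the iron hormone hepcidin, had 21910, 7017, 8354, 21111 and 12444 FPKM in Bcl6 KO and 471, 216, 209, 738 and 1181 FPKM in Irs1 KO (4.82 ± 0.49, adjusted p = 6.20e-05). Serpina6, the corticosteroid-binding globulin of plasma, had 15996, 13597, 7950, 18748 and 7995 FPKM and 322, 284, 141, 246 and 342 FPKM (5.56 ± 0.29, adjusted p = 2.32e-07), with 196 to 314 FPKM in the controls. Each of these genes separated the groups without overlap.

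The promoters of A1bg, Hamp2 and Prlr are shown because these genes differed strongly and the 250 bases before an annotated start hold TTCNNNGAA, a pattern to which both STAT5 and BCL6 are known to bind. They were chosen after their values were seen, among 9 further genes and the 24 genes of largest difference that were looked at. Sequences are from RefSeq on GRCm38.p6, written 5′ to 3′ on the gene's strand, and capitals mark the pattern. They cover chr15:60921271-60921520 on the minus strand for A1bg, chr7:30924182-30924431 on the minus strand for Hamp2 and chr15:10223656-10223905 on the plus strand for 1 of the annotated starts of Prlr.
A1bg: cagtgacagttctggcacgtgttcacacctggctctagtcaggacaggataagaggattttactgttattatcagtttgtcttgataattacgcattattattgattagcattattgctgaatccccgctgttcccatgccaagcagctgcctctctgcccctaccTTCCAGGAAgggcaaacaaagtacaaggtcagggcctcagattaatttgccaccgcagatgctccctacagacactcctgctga
Hamp2: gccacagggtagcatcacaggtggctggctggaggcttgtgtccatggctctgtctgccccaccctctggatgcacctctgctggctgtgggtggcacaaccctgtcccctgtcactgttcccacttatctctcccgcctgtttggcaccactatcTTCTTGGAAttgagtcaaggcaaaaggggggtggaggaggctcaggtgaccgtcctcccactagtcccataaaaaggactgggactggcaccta
Prlr: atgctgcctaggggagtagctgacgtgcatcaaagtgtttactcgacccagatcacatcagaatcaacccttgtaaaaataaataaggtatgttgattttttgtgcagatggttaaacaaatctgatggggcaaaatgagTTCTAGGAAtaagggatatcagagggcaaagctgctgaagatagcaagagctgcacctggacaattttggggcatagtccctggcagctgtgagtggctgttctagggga
The pattern began 84 bases before the start in A1bg, 94 in Hamp2 and 110 in Prlr. It equals its own reverse complement, so 1 search covers both strands. Of 32851 RefSeq promoters, taken as 250 bases before to 50 after each start, 2726 (8.3%) held it. Only 17 of the 24 genes of largest difference had a promoter in the table, which is too few for a share, and 1 of the 17, A1bg, held the pattern. Among the further genes, the other annotated starts of Prlr and those of Ghr, Igf1 and Irs1 held no match. The annotated starts of Bcl6 held it, and Cish held it only from its start onward. A match is a description of letters and says nothing of binding here.

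**Figure D2:**
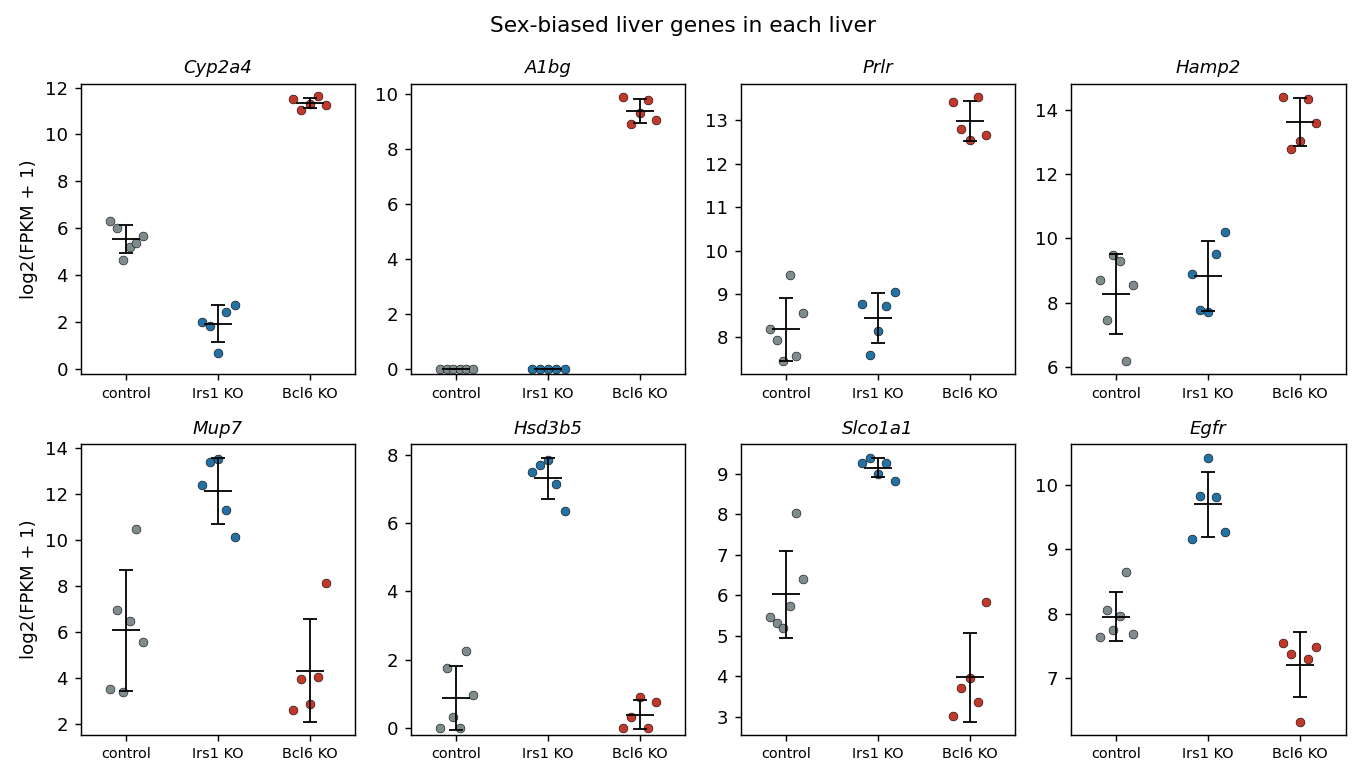
Levels of 8 sex-biased genes in each liver, log2(FPKM + 1), for 6 control, 5 Irs1 KO and 5 Bcl6 KO livers, with 1 point per liver and a horizontal bar and whiskers for the mean ± SD. The female-biased genes of the upper row were highest in all 5 Bcl6 KO livers, and the male-biased genes of the lower row were highest in the Irs1 KO livers, apart from Mup7, for which 1 control liver lay within the Irs1 KO range.

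Transcription factors formed part of the same pattern. Cux2, a homeobox repressor restricted to female liver in mice, was at 1170, 742, 835, 607 and 401 FPKM in Bcl6 KO and at 1.44, 8.64, 0, 9.87 and 0 FPKM in Irs1 KO (7.87 ± 0.66, adjusted p = 1.42e-05). It was far above every Irs1 KO and control liver in all 5 Bcl6 KO livers, and lowest there in liver 5. Esr1, the oestrogen receptor alpha, was at 742 ± 143 FPKM in Bcl6 KO and 266 ± 45.6 FPKM in Irs1 KO (1.47 ± 0.16, adjusted p = 8.90e-05). Other named genes at the high end were Eci3, an enoyl-CoA isomerase (6.70 ± 0.34), and Dnah11, a dynein heavy chain of cilia (6.59 ± 0.33). Under the alternatives of processing these differences reached 9.06 and 8.44, so they rest on low values in Irs1 KO and no p is given.

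At the other end stood the major urinary proteins, pheromone carriers that male mice secrete from the liver and that are encoded in 1 cluster on chromosome 4. Mup7 was at 5.04, 14.4, 6.2, 15.6 and 278 FPKM in Bcl6 KO and at 5314, 10705, 11897, 2538 and 1105 FPKM in Irs1 KO (-7.83 ± 0.98, adjusted p = 0.000255). Mup1 was at 1.23, 5.16, 1.18, 3.99 and 135 FPKM and 953, 2225, 2382, 767 and 365 FPKM (-7.21 ± 0.99, adjusted p = 0.000536). Bcl6 KO liver 5 stood well above the other 4 Bcl6 KO livers for both genes, yet below every Irs1 KO liver. Mup14 was at 0, 12.2, 1.48, 0 and 54.6 FPKM in Bcl6 KO and 721, 1249, 1448, 409.7 and 136 FPKM in Irs1 KO (-7.05 ± 1.06, adjusted p = 0.00104). Mup11 was at 0, 0, 0, 0 and 6.07 FPKM and 159, 354, 521, 46.7 and 59.4 FPKM (-6.70 ± 0.74, adjusted p = 0.000105), and Mup12 at 11.6, 33.9, 3.96, 10.7 and 114 FPKM and 862, 1219, 1169, 499.6 and 333 FPKM (-5.21 ± 0.71, adjusted p = 0.000477). In all 5 genes liver 5 was the highest of its group. The controls ranged widely, with 9.37 to 1444 FPKM for Mup7 and 5.03 to 618 FPKM for Mup14. Both upper ends were those of sgLacZ liver 1, and the other controls were at 9.37 to 124 FPKM and 5.03 to 71.4 FPKM. Without Bcl6 KO liver 5 the count of male-biased genes higher in Irs1 KO was again 38, and without Bcl6 KO liver 3 it was 35.

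Male-biased enzymes and transporters outside the Mup cluster showed the same direction. Hsd3b5, a male-specific 3-ketosteroid reductase of mouse liver, was at 0, 0.239, 0.87, 0 and 0.698 FPKM in Bcl6 KO and at 181, 208, 229, 141 and 80.2 FPKM in Irs1 KO (-6.91 ± 0.30). Control livers had 0 to 3.75 FPKM, below all Irs1 KO livers and overlapping the Bcl6 KO livers. Slco1a1, an uptake transporter of organic anions and bile acids, was at 7.09, 12.1, 14.6, 9.37 and 55.9 FPKM in Bcl6 KO and 614, 674, 510.4, 613 and 451 FPKM in Irs1 KO (-5.17 ± 0.42, adjusted p = 1.12e-05), with 35.6 to 258 FPKM in the controls. The 258 FPKM was that of sgLacZ liver 1, and the other controls were at 35.6 to 83.7 FPKM. Among the other named genes at the low end were the protease inhibitor gene Serpina1e (-5.03 ± 0.75, adjusted p = 0.000990), the fatty acid hydroxylase Cyp4a12a (-4.63 ± 0.82, adjusted p = 0.00301), Selenbp2 (-4.49 ± 0.64, adjusted p = 0.000738) and Cyp2d9 (-4.41 ± 0.69, adjusted p = 0.00133). Mup16, of the Mup cluster, was also at the low end (-4.91 ± 0.71, adjusted p = 0.000789).

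In the growth hormone, prolactin and STAT5 axis, 7 of 23 tested genes were higher in Bcl6 KO and none in Irs1 KO, with a median of 0.16. Prlr and Cux2, described above, are among the 7. Ghr, the growth hormone receptor, was at 4835, 3758, 3125, 5826 and 2891 FPKM in Bcl6 KO and 1585, 1866, 1388, 1539 and 1603 FPKM in Irs1 KO (1.31 ± 0.18, adjusted p = 0.000428). Socs2, a feedback inhibitor induced by STAT5, was at 559, 369.8, 361, 272 and 190.4 FPKM and 40.7, 153, 141, 155 and 111 FPKM (1.59 ± 0.37, adjusted p = 0.0128). For both the groups did not overlap, and Irs1 KO liver 1 was the lowest for Socs2. Igf1, the main endocrine target of growth hormone, was at 5396 ± 717 FPKM in Bcl6 KO and 5548 ± 373 FPKM in Irs1 KO, a difference of -0.05 with a 95% interval of -0.27 to 0.17. Stat5b, the STAT through which the male pattern is set, differed by -0.10 (interval -0.30 to 0.10).

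Of 31 tested insulin signalling genes, 2 were higher in Bcl6 KO and 2 in Irs1 KO, with a median of 0.07. Each is 6.45% of the list, against 9.26% and 6.47% over all tested genes, so neither count is a result about insulin signalling. Insr, the insulin receptor, was at 473, 464, 512, 463 and 427 FPKM in Bcl6 KO and 379, 470.1, 453, 398 and 491 FPKM in Irs1 KO, overlapping throughout, with a difference of 0.10 (interval -0.09 to 0.29). Irs2, the other main liver substrate of the receptor, was at 14.7 ± 2.22 FPKM and 14.2 ± 3.53 FPKM, a difference of 0.07 (interval -0.37 to 0.51). Among the genes past the threshold were the receptor inhibitors Enpp1 (0.44 ± 0.09) and Grb14 (-0.49 ± 0.11), and Ceacam1 (-0.43 ± 0.10), which promotes insulin clearance. The count higher in Bcl6 KO was 1 rather than 2 without Bcl6 KO liver 1 or 3 or Irs1 KO liver 1, 3 or 4.

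Glucose metabolism leaned to the Irs1 KO livers. Of 29 tested genes of gluconeogenesis and glycolysis, 9 were higher in Irs1 KO and 1 in Bcl6 KO, with a median of -0.28. Pfkfb3, which makes the activator fructose 2,6-bisphosphate of glycolysis, was at 157, 235, 178, 156 and 196 FPKM in Bcl6 KO and 647, 996, 721, 944 and 689 FPKM in Irs1 KO (-2.11 ± 0.15, adjusted p = 4.03e-06). Pck1, the cytosolic carboxykinase of gluconeogenesis, was at 3244, 3273, 2310, 2464 and 3094 FPKM and 6164, 5396, 4826, 6720 and 5009 FPKM (-0.97 ± 0.13, adjusted p = 0.000404). The groups did not overlap for either gene, and the controls had 258 to 628 and 1926 to 4306 FPKM. The glycogen phosphorylase Pygl (-0.71 ± 0.10), the fructokinase Khk (-0.77 ± 0.12), the coactivator Ppargc1a (-0.94 ± 0.16) and the glucose transporter Slc2a2 (-0.49 ± 0.12) were also higher in Irs1 KO. The 1 gene higher in Bcl6 KO was Pdk4 (1.76 ± 0.36), the kinase that inhibits pyruvate dehydrogenase.

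Genes of lipid synthesis that passed the test mostly had the other direction. Of 32 tested genes of fatty acid and triglyceride synthesis, 10 were higher in Bcl6 KO and 3 in Irs1 KO, with a median of 0.27, and without Irs1 KO liver 2 the 10 became 6. Acacb, the mitochondrial acetyl-CoA carboxylase, was at 1174, 969, 965, 1188 and 1086 FPKM in Bcl6 KO and 319, 270.3, 418, 357 and 334 FPKM in Irs1 KO (1.67 ± 0.11, adjusted p = 3.05e-06). Fads1, a desaturase of polyunsaturated fatty acids, was at 2875, 2622, 1990, 3582 and 2547 FPKM and 824, 467, 635, 808 and 803 FPKM (1.95 ± 0.18, adjusted p = 2.83e-05). Pnpla3, a lipase and acyltransferase of lipid droplets, was at 263, 297, 89.8, 569 and 352 FPKM and 62.2, 36.3, 21.3, 29.7 and 13.8 FPKM (3.18 ± 0.47, adjusted p = 0.000858). No Bcl6 KO liver overlapped an Irs1 KO liver for these 3 genes, and Bcl6 KO liver 3 was the lowest of its group for Fads1 and Pnpla3. The desaturases Fads2 (1.30 ± 0.16) and Scd1 (0.45 ± 0.13) were higher in Bcl6 KO as well, and the male-biased elongase Elovl3 (-4.37 ± 1.11) was higher in Irs1 KO. Fasn, the fatty acid synthase, differed by 0.33 ± 0.33 (adjusted p = 0.564) and the lipogenic regulator Srebf1 by -0.30 ± 0.21 (adjusted p = 0.386), neither past the threshold. Acaca, the other acetyl-CoA carboxylase gene, differed by 0.09 and did not pass. The mean level over the list, in log2 units around its mean over the knockout livers, overlapped between the groups. It was -0.21 to 0.60 in Bcl6 KO and -0.23 to 0.001 in Irs1 KO.

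**Figure D3:**
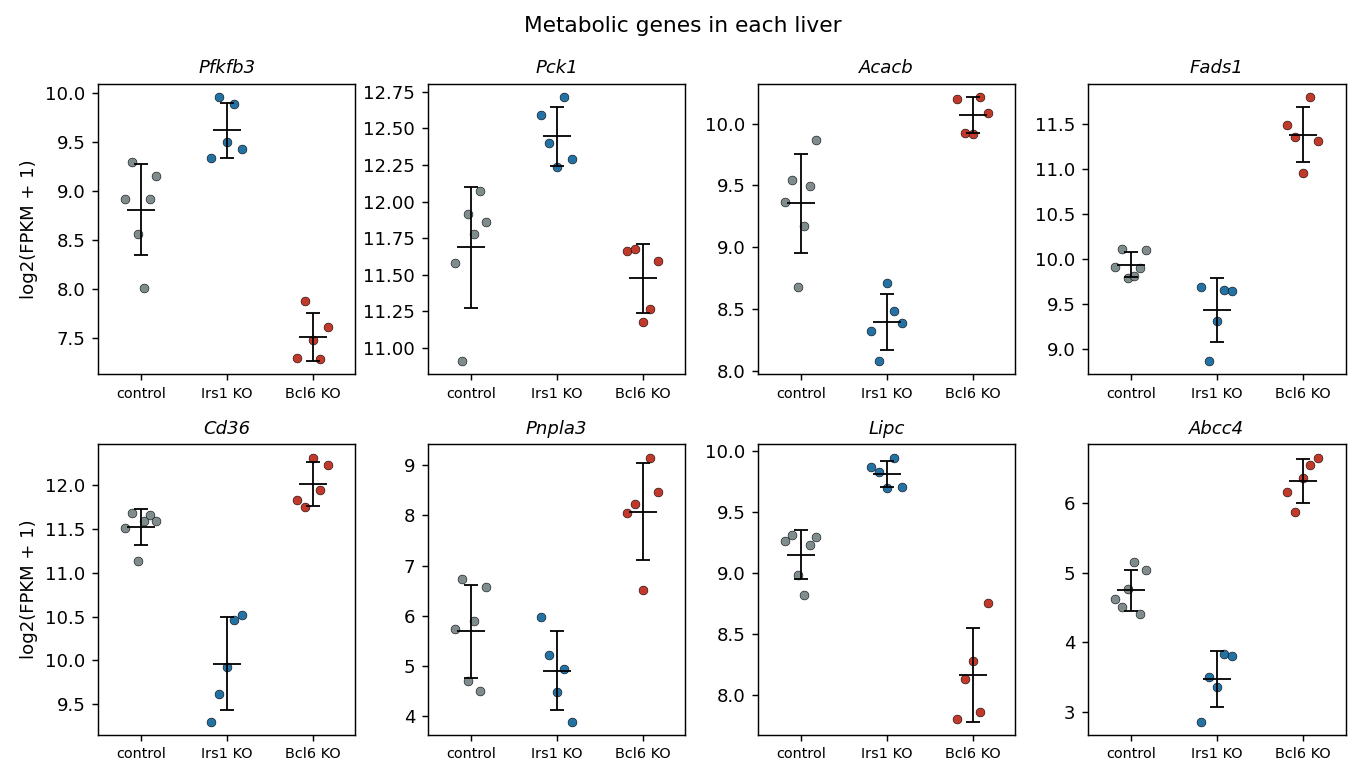
Levels of 8 metabolic genes in each liver, log2(FPKM + 1), for 6 control, 5 Irs1 KO and 5 Bcl6 KO livers, with 1 point per liver and the mean ± SD. Pfkfb3, Pck1 and Lipc were higher in all 5 Irs1 KO livers than in any Bcl6 KO liver, and Acacb, Fads1, Cd36, Pnpla3 and Abcc4 were higher in all 5 Bcl6 KO livers.

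Lipid droplet and uptake genes were divided, with 7 of 32 higher in Bcl6 KO and 5 in Irs1 KO (median 0.20), and median scaling made this 6 and 7. Cd36, a fatty acid translocase and itself a female-biased gene, was at 3627, 3435, 5084, 3946 and 4796 FPKM in Bcl6 KO and 630, 781, 967, 1406 and 1463 FPKM in Irs1 KO (2.05 ± 0.22, adjusted p = 9.63e-05). Control livers lay between the groups, at 2237 to 3270 FPKM. The lipoprotein receptor Vldlr (1.67 ± 0.30), the lipase coactivator Abhd5 (0.76 ± 0.14) and the nuclear receptor Pparg (0.98 ± 0.26) were higher in Bcl6 KO, and the acyl-CoA synthetase Slc27a2 (-0.61 ± 0.11) and the fatty acid-binding protein Fabp1 (-0.53 ± 0.12) were higher in Irs1 KO. Cidec, a droplet fusion protein of fatty liver, was at 27, 68.9, 175, 38.7 and 164 FPKM in Bcl6 KO and 59.8, 56.8, 46.8, 112 and 33.4 FPKM in Irs1 KO and did not pass (0.36 ± 0.50, adjusted p = 0.690). All 10 knockout livers were below the controls, which had 338 to 745 FPKM of Cidec.

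Among genes of fatty acid oxidation and PPARα targets, 10 of 37 were higher in Bcl6 KO and 2 in Irs1 KO (median 0.09). The members higher in Bcl6 KO were mainly the acyl-CoA thioesterases Acot3 (4.60 ± 0.51), Acot4 (2.15 ± 0.24), Acot2 (1.83 ± 0.32) and Acot1 (1.56 ± 0.40) and the omega-hydroxylases Cyp4a31 (2.68 ± 0.25) and Cyp4a10 (1.26 ± 0.36), of which Acot3, Acot4 and Cyp4a10 are also on the female-biased list. Cpt1a, the entry step of mitochondrial oxidation, differed by 0.06 (interval -0.19 to 0.32) and Ppara itself by -0.09 (interval -0.42 to 0.24).

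Cholesterol synthesis was higher in Bcl6 KO for 9 of 28 tested genes, against 1 higher in Irs1 KO, with a median of 0.42. Fdps, which makes farnesyl diphosphate, was at 322, 274, 225, 334 and 311 FPKM in Bcl6 KO and 109, 102, 159, 125 and 115 FPKM in Irs1 KO (1.26 ± 0.14, adjusted p = 0.000103). Mvd, the mevalonate diphosphate decarboxylase, was at 45.6, 39.4, 16.8, 54.3 and 41.5 FPKM and 7.57, 5.81, 7.27, 8.36 and 4.89 FPKM (2.31 ± 0.29, adjusted p = 0.000253). Bcl6 KO liver 3 was the lowest Bcl6 KO liver for both genes, and without it 11 members passed rather than 9. Also past the threshold were the synthase Hmgcs1 (0.95 ± 0.13) and the squalene epoxidase Sqle (1.11 ± 0.27). Control livers overlapped both groups for Fdps, at 124 to 446 FPKM.

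Lipoprotein genes split, with 8 of 33 higher in Bcl6 KO and 9 in Irs1 KO (median 0.04). Pltp, the phospholipid transfer protein, was at 107, 106, 116, 129 and 101 FPKM in Bcl6 KO and 28.3, 14.8, 20.4, 25.8 and 30.9 FPKM in Irs1 KO (2.21 ± 0.18, adjusted p = 1.22e-05). Lipc, hepatic lipase, was at 223, 280.1, 309, 231 and 432 FPKM and 934, 907, 830, 985 and 831 FPKM (-1.64 ± 0.16, adjusted p = 3.70e-05). The HDL receptor Scarb1 (-0.85 ± 0.09) was higher in Irs1 KO and the lipase cofactor Apoc2 (1.25 ± 0.13) was higher in Bcl6 KO. Apob, the structural protein of VLDL, differed by 0.03 (interval -0.13 to 0.19). The count of 9 became 5 without Bcl6 KO liver 3 or 5, or Irs1 KO liver 1, 2 or 4.

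Bile acid genes were mostly higher in Irs1 KO, 18 of 30 tested, against 3 higher in Bcl6 KO, with a median of -0.44. The transporters led. Slc10a1, the sodium-dependent uptake transporter of conjugated bile acids, was at 843, 673, 673, 949 and 1135 FPKM in Bcl6 KO and 1691, 2046, 1924, 1592 and 1921 FPKM in Irs1 KO (-1.12 ± 0.14, adjusted p = 0.000288). The basolateral uptake carrier Slco1b2 (-0.78 ± 0.11), the canalicular export pump Abcb11 (-0.40 ± 0.11) and the phospholipid flippase Abcb4 (-0.61 ± 0.12) were also higher in Irs1 KO. Abcc4, a basolateral exporter, went the other way, at 70.4, 57.6, 80.9, 92.7 and 99.8 FPKM in Bcl6 KO and 6.25, 10.3, 9.19, 13.2 and 13 FPKM in Irs1 KO (2.85 ± 0.22, adjusted p = 6.82e-06). Of the synthesis enzymes, Cyp7b1 (-1.91 ± 0.35), Cyp27a1 (-0.48 ± 0.12) and the 12-alpha-hydroxylase Cyp8b1 (-0.85 ± 0.21) were higher in Irs1 KO. Cyp7a1, the rate-limiting enzyme, was at 308 to 1032 and 275 to 581 FPKM and did not pass (0.56 ± 0.31, adjusted p = 0.261). The bile acid receptor Nr1h4 (-0.52 ± 0.12), the FGF19-family receptor Fgfr4 (-0.95 ± 0.13) and the corepressor Nr0b2 (-0.97 ± 0.30) were higher in Irs1 KO. Bcl6 KO liver 5 had a higher level of this list than the other Bcl6 KO livers, and without it 16 members were higher in Irs1 KO.

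Xenobiotic metabolism changed in both directions, with 13 of 44 higher in Bcl6 KO and 10 in Irs1 KO (median 0.25). Glutathione transferases were prominent among the former, with Gstt3 (2.42 ± 0.19), Gstm2 (2.03 ± 0.18) and Gstm1 (0.95 ± 0.17). Gstm3 was at 268, 207, 425, 246 and 283 FPKM in Bcl6 KO and 44, 33, 15.8, 42.8 and 23.3 FPKM in Irs1 KO (3.18 ± 0.27, adjusted p = 1.65e-05), and its control range, 174 to 354 FPKM, overlapped Bcl6 KO and not Irs1 KO. Higher in Irs1 KO were Cyp2c54 (-3.64 ± 0.36), Cyp2c50 (-3.24 ± 0.53) and the aldehyde oxidase Aox3 (-1.89 ± 0.22). Of 29 tested NRF2 targets and glutathione genes, 13 were higher in Bcl6 KO (median 0.35), among them Nqo1 (1.55 ± 0.28), the haem oxygenase Hmox1 (1.16 ± 0.17) and G6pdx (0.93 ± 0.22). Txnrd1 (-0.08), Prdx6 (-0.19) and Gsta3 (-0.02) did not pass. In this list 1 gene, Gstp1 (-0.90 ± 0.27), was higher in Irs1 KO, and that call was lost on leaving out any liver other than Irs1 KO liver 5. Sulfotransferase and steroid genes (7 higher in Bcl6 KO and 8 in Irs1 KO of 24) and organic ion transporters (7 and 8 of 24) held the sex-biased genes named above and Sult1a1 (1.25 ± 0.13), Srd5a1 (-1.96 ± 0.21), the steroid 5-alpha-reductase, Slc22a26 (5.62 ± 0.37) and Slc22a28 (-4.29 ± 0.45).

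**Figure D4:**
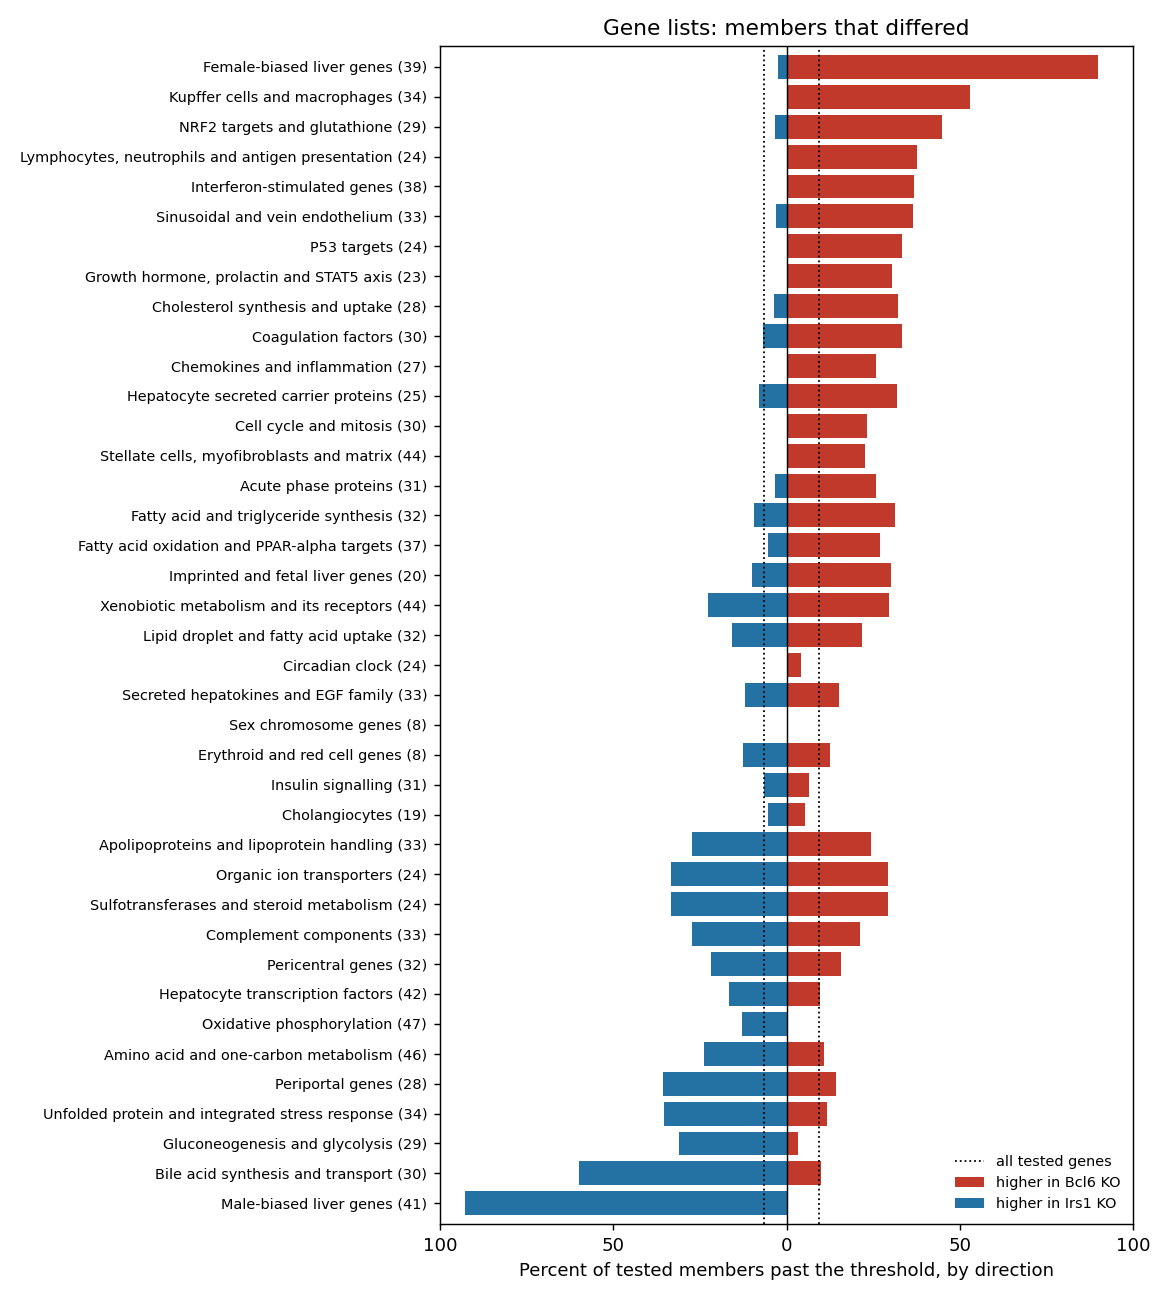
Percent of tested members of 39 gene lists that were higher in Bcl6 KO (red, to the right) or higher in Irs1 KO (blue, to the left), with the number tested in parentheses and dotted lines at the shares over all tested genes, 9.26% and 6.47%. The female-biased list (35 of 39) and the male-biased list (38 of 41) lie at the ends.

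Plasma proteins made by hepatocytes differed by group of function. Of 25 carrier proteins, 8 were higher in Bcl6 KO and 2 in Irs1 KO (median 0.17), and leaving out any of Bcl6 KO livers 1, 2 and 4 or Irs1 KO livers 2 to 5 reduced the 2 to 1. Alb, albumin, was at 155442, 145821, 103330, 150798 and 101951 FPKM in Bcl6 KO and 55572, 52697, 37812, 57436 and 70584 FPKM in Irs1 KO (1.27 ± 0.19, adjusted p = 0.00103), without overlap. The iron carrier Trf (1.23 ± 0.11) and the vitamin D carrier Gc (0.48 ± 0.08) followed. Of 31 acute phase genes, 8 were higher in Bcl6 KO and 1 in Irs1 KO (median 0.39), led by Cp, the copper protein ceruloplasmin, at 28212, 27004, 22526, 32229 and 19463 FPKM in Bcl6 KO and 5966, 6933, 8313, 6858 and 8045 FPKM in Irs1 KO (1.83 ± 0.14, adjusted p = 9.49e-06). Saa1, a strongly inducible acute phase protein, was at 17.3, 77.1, 2491, 72.1 and 148 FPKM in Irs1 KO, where liver 3 was far above the other livers. Without Irs1 KO liver 3 the count of acute phase genes higher in Bcl6 KO was 15 rather than 8.

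Complement genes followed the sex-biased pattern in part. Of 33, 9 were higher in Irs1 KO and 7 in Bcl6 KO (median -0.06), and the 7 became 4 without Bcl6 KO liver 3, Irs1 KO liver 1 or Irs1 KO liver 2. The terminal components stood out, with C8a (-2.79 ± 0.33), C6 (-2.20 ± 0.28) and C9 (-2.40 ± 0.33) higher in Irs1 KO, all of them also on the male-biased list. C8b was at 23.4, 84.3, 44.9, 31.8 and 119.6 FPKM in Bcl6 KO and 836, 1267, 1373, 860.2 and 893 FPKM in Irs1 KO (-4.30 ± 0.38, adjusted p = 1.94e-05). Of 30 coagulation genes, 10 were higher in Bcl6 KO and 2 in Irs1 KO (median 0.24). These included antithrombin (Serpinc1 (0.57 ± 0.08)), prothrombin (F2 (0.54 ± 0.10)) and factor VII (F7 (1.02 ± 0.21)), and the anticoagulant Proc (-0.47 ± 0.11) was higher in Irs1 KO. Every control liver had a lower level of the coagulation list than every knockout liver.

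The mean level over the periportal list separated the groups, at -0.31 to -0.11 log2 units in Bcl6 KO and 0.07 to 0.26 in Irs1 KO. The level over the pericentral list overlapped, at -0.06 to 0.29 and -0.18 to 0.03. Of 28 periportal genes 10 were higher in Irs1 KO and 4 in Bcl6 KO (median -0.33). Hal, the histidine ammonia-lyase, was at 324, 249, 248, 268 and 201 FPKM in Bcl6 KO and 464, 508, 446, 499 and 456 FPKM in Irs1 KO (-0.89 ± 0.11, adjusted p = 0.000273), and the lung and liver P450 Cyp2f2 (-1.96 ± 0.20) and E-cadherin (Cdh1 (-1.92 ± 0.26)) had the same direction. Of 32 pericentral genes 7 were higher in Irs1 KO and 5 in Bcl6 KO (median -0.22). Cyp2e1, the ethanol-inducible P450, was at 2241, 2521, 1645, 2133 and 3457 FPKM and 5294, 5434, 4699, 5890 and 5131 FPKM (-1.18 ± 0.16, adjusted p = 0.000486), and glutamine synthetase (Glul (-0.62 ± 0.15)) was higher in Irs1 KO too. Nt5e, the ectonucleotidase CD73, had the reverse direction at 113, 99.3, 80.3, 86.9 and 81.5 FPKM and 5.85, 5.2, 2.76, 4.12 and 2.68 FPKM (4.22 ± 0.21, adjusted p = 1.72e-07).

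Of 46 amino acid and one-carbon genes 11 were higher in Irs1 KO and 5 in Bcl6 KO (median -0.16), and the 5 became 3 without Irs1 KO liver 1. The 5 are 10.9% of the list, near the 9.26% over all tested genes, and the 11 are 23.9%, against 6.47%. Of the enzymes of tryptophan breakdown, Tdo2 (-0.88 ± 0.15), Kynu (-0.82 ± 0.12) and Kmo (-0.65 ± 0.12) were higher in Irs1 KO. Haao, another enzyme of that breakdown, differed by -0.10 and did not pass. Of 42 hepatocyte transcription factors 7 were higher in Irs1 KO and 4 in Bcl6 KO (median -0.12). The shares were 16.7% and 9.52%, against 6.47% and 9.26% over all tested genes, and median scaling made the 7 into 12. The carbohydrate-response factor Mlxipl (-0.47 ± 0.10), Foxa1 (-0.65 ± 0.12) and Creb3l3 (-0.52 ± 0.08) were higher in Irs1 KO, and the 4 became 2 without Bcl6 KO liver 3. Hnf4a, the master regulator of hepatocyte identity, differed by -0.08 ± 0.08 (adjusted p = 0.559). The oxidative phosphorylation genes gave 6 of 47 higher in Irs1 KO and none in Bcl6 KO (median -0.12), and the 6 became 2 or 3 without Bcl6 KO liver 1 or 3 or Irs1 KO liver 1 or 4.

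Of 34 genes of the unfolded protein and integrated stress responses, 12 were higher in Irs1 KO and 4 in Bcl6 KO, with a median of -0.36. Hyou1, a large chaperone of the reticulum, was at 439, 468, 242, 305 and 359 FPKM in Bcl6 KO and 759.6, 657, 777, 691 and 618 FPKM in Irs1 KO (-0.98 ± 0.16, adjusted p = 0.00188), with 248 to 448 FPKM in the controls. The chaperones and cofactors Creld2 (-1.02 ± 0.19), Dnajb9 (-0.74 ± 0.15), Dnajb11 (-0.61 ± 0.14), Calr (-0.55 ± 0.14) and Pdia4 (-0.45 ± 0.12) had the same direction. Hspa5 (BiP), the main chaperone, did not pass (-0.40 ± 0.14, adjusted p = 0.0768). The 4 genes higher in Bcl6 KO were Vldlr (1.67 ± 0.30), Atf3 (1.18 ± 0.27), Gdf15 (1.66 ± 0.46) and Psat1 (1.05 ± 0.30), which belong to the integrated stress response or respond to it. They are 11.8% of the list, near the 9.26% over all tested genes, so their count is not a result about that response. The 12 higher in Irs1 KO are 35.3%, against 6.47%. Without Bcl6 KO liver 3 the counts were 8 and 2, and without Bcl6 KO liver 5 they were 11 and 2.

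Immune cell markers that passed the test were higher in Bcl6 KO. Of 34 genes of Kupffer cells and macrophages, 18 were higher in Bcl6 KO and none in Irs1 KO, with a median of 1.00. Summed over the list, the level was 3476 to 7098 FPKM in Bcl6 KO, 1901 to 2933 FPKM in Irs1 KO and 3437 to 8584 FPKM in the controls, and no member was at 0 in all 10 livers. Ctss, a lysosomal protease of macrophages, was at 552, 631, 1299, 604 and 697 FPKM in Bcl6 KO and 288, 321, 334, 318 and 322 FPKM in Irs1 KO (1.18 ± 0.19, adjusted p = 0.00173). The tetraspanin Cd9 (2.35 ± 0.25), the monocyte receptor Ccr2 (1.56 ± 0.29), the elastase Mmp12 (2.90 ± 0.56) and the lectin Clec7a (1.61 ± 0.28) passed as well. Gpnmb, a marker of lipid-associated macrophages, was at 8.37, 6.26, 45.1, 3.64 and 7.97 FPKM and 0.903, 0.213, 1.35, 1.39 and 0.0972 FPKM (2.63 ± 0.54, adjusted p = 0.00674). The resident Kupffer cell markers Clec4f (0.47 ± 0.20, adjusted p = 0.136), Vsig4 (0.64 ± 0.28, adjusted p = 0.152) and Timd4 (0.19 ± 0.46, adjusted p = 0.829) did not pass. Bcl6 KO liver 3 was the highest of its group for Ctss and Gpnmb, and without it 15 members passed.

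Antigen presentation and lymphocyte genes followed, with 9 of 24 higher in Bcl6 KO and none in Irs1 KO (median 0.95). The summed level was 749 to 1843 FPKM in Bcl6 KO, 406 to 574 FPKM in Irs1 KO and 899 to 1995 FPKM in the controls, and Ly6g, the defining neutrophil marker, was at 0 in all 10 knockout livers. Ciita, the transactivator of MHC class II genes, was at 46.6, 50.2, 93.2, 52.9 and 64.4 FPKM in Bcl6 KO and 18.5, 24.9, 19.2, 19.8 and 20.9 FPKM in Irs1 KO (1.49 ± 0.19, adjusted p = 0.000267). Its class II targets H2-Eb1 (1.22 ± 0.23), H2-Ab1 (1.20 ± 0.24) and Cd74 (1.31 ± 0.29) and the leukocyte antigen Ptprc (0.97 ± 0.16) were higher with it. Of 27 chemokine and inflammation genes 7 were higher in Bcl6 KO (median 0.61), and 4 without Bcl6 KO liver 2 or 3. Ccl9, a chemokine of myeloid cells, was at 170, 149, 156, 169 and 149 FPKM and 35.2, 51.1, 41.8, 46 and 65.9 FPKM (1.73 ± 0.15, adjusted p = 1.58e-05), above the controls in Bcl6 KO (51.1 to 76.7 FPKM in control livers).

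Interferon-stimulated genes were higher in Bcl6 KO for 14 of 38 members, with none higher in Irs1 KO and a median of 0.69. Ifit2, an antiviral RNA-binding protein, was at 52.3, 57.3, 76.8, 69.7 and 62.7 FPKM in Bcl6 KO and 23.4, 22.1, 15.4, 23.4 and 27.8 FPKM in Irs1 KO (1.48 ± 0.17, adjusted p = 0.000129). The guanylate-binding proteins Gbp3 (1.14 ± 0.15) and Gbp2 (1.55 ± 0.26) and the oligoadenylate synthetase-like Oasl2 (1.20 ± 0.22) were among the others. Control livers had 46.3 to 96.2 FPKM of Ifit2, overlapping Bcl6 KO and above every Irs1 KO liver. The macrophage markers given above moved with these genes, and their part in the result was not tested. Without Bcl6 KO liver 3, the highest of its group for this list, 11 members passed.

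**Figure D5:**
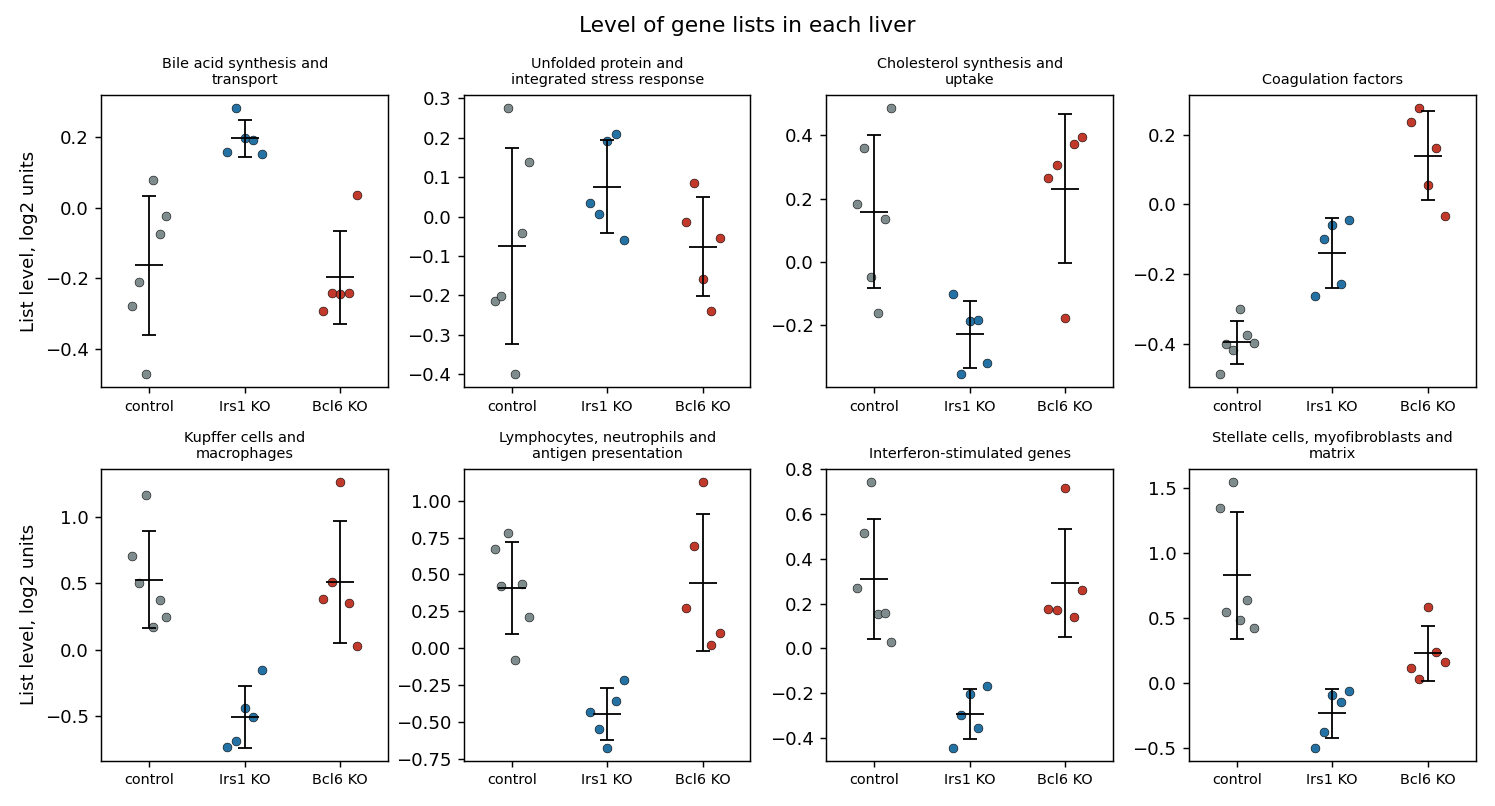
Level of 8 gene lists in each liver, the mean over tested members of log2(FPKM + 1) minus its mean over the 10 knockout livers, for 6 control, 5 Irs1 KO and 5 Bcl6 KO livers with the mean ± SD. The macrophage, lymphocyte, interferon and stellate lists were lower in all 5 Irs1 KO livers than in any Bcl6 KO liver, and the bile acid list was higher in all 5 Irs1 KO livers than in any Bcl6 KO liver.

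Stroma and vessels showed smaller differences in the same direction. Of 44 stellate cell, myofibroblast and matrix genes 10 were higher in Bcl6 KO and none in Irs1 KO (median 0.44), which became 5 or 6 without Bcl6 KO liver 3 or 5 or Irs1 KO liver 1 or 2. The summed level was 3774 to 5446 FPKM in Bcl6 KO, 2593 to 3597 FPKM in Irs1 KO and 4471 to 9847 FPKM in the controls. Postn, a matrix protein of activated fibroblasts, was at 139, 193, 164, 118 and 171 FPKM in Bcl6 KO and 62.3, 71, 97.4, 91.7 and 85.1 FPKM in Irs1 KO (0.94 ± 0.16, adjusted p = 0.00215), and all Irs1 KO livers were below the controls, which had 161 to 253 FPKM. Of 33 endothelial genes 12 were higher in Bcl6 KO (median 0.41), among them Gpr182 (0.94 ± 0.18), Lyve1 (0.98 ± 0.21) and Clec4g (0.65 ± 0.17) of the sinusoids. The 1 endothelial-list gene higher in Irs1 KO was Cd209b (-1.45 ± 0.37), and 2 were without Bcl6 KO liver 5 or Irs1 KO liver 3. The summed level was 2635 to 2934 FPKM in Bcl6 KO, 1632 to 2321 FPKM in Irs1 KO and 1972 to 2436 FPKM in the controls.

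Egfr, the receptor of epidermal growth factor and a male-biased liver gene, was at 187, 165, 79.3, 157 and 179 FPKM in Bcl6 KO and 571, 905, 1368, 898 and 617 FPKM in Irs1 KO (-2.49 ± 0.27, adjusted p = 9.63e-05). The controls lay between the groups, at 199 to 398 FPKM, the highest being sgLacZ liver 1. Its ligand gene Egf was higher in Bcl6 KO, 21.8 ± 15.4 FPKM against 2.5 ± 1.78 FPKM (2.68 ± 0.44, adjusted p = 0.00197). Of 33 hepatokines and EGF family genes, 5 were higher in Bcl6 KO and 4 in Irs1 KO (median -0.01). The shares were 15.2% and 12.1%, against 9.26% and 6.47% over all tested genes. The 5 became 3 without Irs1 KO liver 3 and the 4 became 2 without Irs1 KO liver 1 or 2.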

How the data were processed

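Total RNA of 34 livers was sequenced with a stranded total RNA kit, per the labels' protocols, and 10 libraries entered the comparison. The submitters' processing notes list featureCounts 1.6.4 for counting, with mm10 and GRCh38 as builds of unstated role. Aligner, annotation and strand setting were not given in the sources used here, so overlapping or antisense genes may share reads. The authors deposited 1 table of FPKM for 35976 symbols, of which 12108 were at 0 in all 10 livers. Columns sum to 2966870 to 3085770 FPKM, more than a single length per gene would give, so levels were not compared between genes. Depth was read from the low values, as the number of fragments at which 1 fragment over an annotated transcript length gives the listed value. In each library 79 to 159 lengths gave the same number and at most 3 gave any other. Genes under about 5 FPKM rest on few fragments.

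Genes at 1 FPKM or more in at least 5 livers were tested on log2(FPKM + 1) by limma 3.58.1 (R 4.3.3) with a variance trend, in a fit of the 10 livers alone, two-sided, with Benjamini-Hochberg adjustment over 16623 genes and a threshold of 0.05. The log2 scale with 1 added understates differences of low genes. The labels number the livers within a group and do not name the animals, so each liver was taken as 1 animal, and p-values measure the spread between these libraries. The highest Pearson correlation of any 2 livers was 0.965 and no 2 were identical. Replicate numbers did not pair the livers. On simulated data of the same size, with normal noise, the test recovered 73% of genes changed by 1 and 93% of genes changed by 2 on the log2 scale. The changed genes were drawn only from those with a mean level above about 10 FPKM, so these shares do not cover lower genes.

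The members, the 40 gene lists (1155 symbols, 1056 tested) and the tests were chosen with earlier results of these data known, and some genes stand in several lists. Named genes were Bcl6, Irs1, the 12 highest and 12 lowest differences past the threshold without overlap between groups (unnamed loci left out), and up to 4 members of a list by smallest adjusted p, with members whose 95% interval lay within -0.5 to 0.5. Other list members are named for their role and were chosen after their values were seen. Some genes that these rules name are not reported here. Control values are background without a test. A comparison of each knockout with the controls would share those controls and was not made. Alternatives were the pseudocount, the filter, scaling, the fit, a replicate block and leaving out each liver.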

Additional observations from a re-analysis of the deposited data

Results flagged for a closer look

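In 140 groups of 5 livers, 1 for each gene or list looked at in each knockout group, 13 held a liver whose gap to its nearest neighbour exceeded 0.71 of the group's range on the log2 scale. Chance flags about 1 in 20 such groups, and the genes are correlated. The flags fell mainly on 3 livers.

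In Bcl6 KO liver 5, the urinary protein genes Mup7 (278 FPKM, others 5.04 to 15.6), Mup1 (135, others 1.18 to 5.16) and Mup11 (6.07, others 0) were far above the other Bcl6 KO livers, as were the proliferation gene Mki67 (150, others 62.2 to 69.2) and the level of the bile acid list (0.036 in log2 units, others -0.29 to -0.24). In Bcl6 KO liver 3, Egfr (79.3 FPKM, others 157 to 187), the cholesterol synthesis gene Mvd (16.8, others 39.4 to 54.3) and the level of the cholesterol list (-0.18, others 0.26 to 0.39) were low, while the macrophage protease gene Ctss (1299 FPKM, others 552 to 697) and the level of the interferon list (0.72, others 0.14 to 0.26) were high. In Irs1 KO liver 2, the Y-linked genes Eif2s3y (214 FPKM, others 797 to 1003) and Ddx3y (178, others 250 to 282) were low. Uty, also Y-linked, was within the range of the other Irs1 KO livers there (512 FPKM, others 509 to 610). In Irs1 KO liver 1 Socs2 was low (40.7 FPKM, others 111 to 155). The causes were not tested.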

How the results depend on the processing

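The count of 2614 genes was 1924 with a replicate block and 1958 to 2417 with 1 liver left out, the lowest without Bcl6 KO liver 3 (1115 to 1473 higher in Bcl6 KO, 805 to 992 higher in Irs1 KO). Same-numbered livers did not deviate together (correlations -0.09 to 0.03), so the block says nothing of pairing. The count was 2501 with a pseudocount of 0.1, 2255 without a filter, 2499 with a filter at 5 FPKM, 2587 after quantile normalization, 2260 in the fit of all 34 livers, 2199 without a variance trend and 2580 with array weights. Median scaling gave 2950, with 1792 higher in Irs1 KO against 1075, and quantile normalization gave 50.6% of called genes higher in Bcl6 KO. The cause was not tested. Of 149 named genes past the threshold, 130 stayed past it under all 19 alternatives and 19 lost it under at least 1, among them Slc27a5, Canx and Sox9. Apoe reversed under quantile normalization, from 0.04, not past the threshold, to -0.50, past it.

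List counts moved as follows, and the cause was not tested. The female-biased gene higher in Irs1 KO (1) became 0 without a filter, in the fit of all 34 livers, without a variance trend and with the replicate block, and 0 to 1 with a liver left out, where the female-biased genes higher in Bcl6 KO numbered 33 to 35 and the male-biased genes higher in Irs1 KO 35 to 38. In the fit of all 34 livers the cholesterol genes gave 5 higher in Bcl6 KO and 0 in Irs1 KO (0 in Irs1 KO with the block too), the coagulation genes 1 higher in Irs1 KO (1 with the block), the interferon genes 8 and the stress response genes 2 higher in Bcl6 KO. Those last were also 2 with a filter at 5 FPKM and with the block, and 2 or 3 with a liver left out, while the stress response genes higher in Irs1 KO were 7 with the block. Among the other lists, the fit of all 34 livers lowered the counts higher in Bcl6 KO from 10 to 2 for stellate genes, 7 to 2 for cell cycle, 10 to 5 for fatty acid synthesis, 7 to 4 for the growth hormone axis and 5 to 2 for amino acids, and raised the erythroid 1 to 2. It lowered those higher in Irs1 KO from 11 to 7 for amino acids, 6 to 2 for oxidative phosphorylation, 5 to 3 for lipid droplets, 2 to 1 for imprinted genes and 1 to 0 for bile ducts, and raised the NRF2 list from 1 to 2. With the replicate block the counts higher in Bcl6 KO were 7 against 12 for endothelium, 6 against 10 for fatty acid synthesis, 3 against 5 for amino acids and 2 against 5 for hepatokines. Those higher in Irs1 KO were 1 against 6 for oxidative phosphorylation, 2 against 4 for hepatokines, 1 against 2 for fatty acid oxidation and 0 against 1 for bile ducts and endothelium. The insulin list gave 1 against 2 in each direction with the block, and 1 against 2 higher in Bcl6 KO with median scaling, in the fit of all 34 livers and without a variance trend. Median scaling gave, higher in Bcl6 KO, 7 against 12 for endothelium, 6 against 10 for stellate genes, 5 against 8 for lipoproteins, 3 against 5 for amino acids, 2 against 4 for periportal genes and 0 against 1 for erythroid genes. Higher in Irs1 KO it raised transcription factors from 7 to 12, carrier proteins from 2 to 5, fatty acid oxidation from 2 to 4 and endothelium from 1 to 2. Without a variance trend the counts higher in Bcl6 KO were 6 against 10 for stellate genes, 5 against 8 for lipoproteins, 4 against 7 for complement, 2 against 4 for periportal genes and 0 against 1 for erythroid genes. Those higher in Irs1 KO were 6 against 10 for periportal genes, 5 against 9 for lipoproteins, 2 against 6 for oxidative phosphorylation, 1 against 2 for carrier proteins and imprinted genes and 0 against 1 for NRF2 targets. Without a filter the counts higher in Bcl6 KO were 6 against 10 for stellate genes, 4 against 7 for cell cycle and chemokines and 0 against 1 for erythroid genes. Those higher in Irs1 KO were 5 against 9 for lipoproteins, 1 against 2 for carrier proteins and imprinted genes and 0 against 1 for NRF2 targets and bile ducts. Quantile normalization gave 4 against 7 cell cycle genes higher in Bcl6 KO and raised the bile duct genes higher in Bcl6 KO from 1 to 2, as did a filter at 5 FPKM, raised the endothelial genes higher in Irs1 KO from 1 to 2 and gave 1 against 2 carrier proteins there. Array weights gave 0 against 1 for NRF2 targets and erythroid genes. Depth limits low genes most, since 1 fragment sets the smallest step.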

Other observations

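Lists outside metabolism and cell type held further differences. Of 20 tested imprinted and fetal liver genes 6 were higher in Bcl6 KO and 2 in Irs1 KO (median 0.54). Peg3, a paternally expressed zinc-finger gene, was at 711, 547, 272, 410.2 and 185 FPKM in Bcl6 KO livers 1 to 5 and 25.3, 33.1, 35.2, 35.9 and 29.1 FPKM in Irs1 KO livers 1 to 5, with 24.9 to 46.1 FPKM in the controls (3.56 ± 0.30, limma, adjusted p = 1.58e-05). Igdcc4 (5.0 ± 0.54, adjusted p = 9.63e-05) and the cell cycle inhibitor Cdkn1c (1.46 ± 0.30) had the same direction, while H19, the imprinted RNA of fetal liver, did not pass (1.32 ± 0.84, adjusted p = 0.333). The 2 genes higher in Irs1 KO became 1 without Bcl6 KO liver 1, 2 or 4 or Irs1 KO liver 2 or 5.

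Of 30 cell cycle genes 7 were higher in Bcl6 KO and none in Irs1 KO (median 0.57), and 3 or 4 without Bcl6 KO liver 3 or Irs1 KO liver 1, 3 or 4. Mki67, a marker of dividing cells, was at 62.9, 69.2, 68.6, 62.2 and 150 FPKM in Bcl6 KO and 23.1, 27.9, 25.2, 31.3 and 50.6 FPKM in Irs1 KO (1.32 ± 0.27, adjusted p = 0.00633). Of 24 p53 targets 8 were higher in Bcl6 KO (33.3%, against 9.26% over all tested genes) and none in Irs1 KO (median 0.48). Plk2 (1.91 ± 0.19) and Eda2r (2.12 ± 0.30) were among the 8, while Mdm2 (0.01), Ei24 (0.20) and Perp (0.19) did not pass. The metallothionein genes Mt1 (2.80 ± 0.64) and Mt2 (3.44 ± 0.83), which bind zinc and copper, were higher in Bcl6 KO. Of 8 tested erythroid genes 6 had a positive difference (median 0.65), and 1 passed in each direction. Alas2 (-1.20 ± 0.14), the aminolevulinate synthase of red cell precursors, was higher in Irs1 KO and the transferrin receptor Tfrc (1.07 ± 0.30) in Bcl6 KO. The call of Tfrc was lost on leaving out any liver other than Bcl6 KO liver 1 or Irs1 KO liver 2. Of 19 tested bile duct genes 1 passed in each direction too (median 0.16). Prom1, a marker of bile duct and progenitor cells, was at 479 ± 197 FPKM in Bcl6 KO and 32.1 ± 19.5 FPKM in Irs1 KO (4.0 ± 0.43, adjusted p = 8.97e-05). Sox9, a duct and progenitor factor, was higher in Irs1 KO (-0.74 ± 0.23, adjusted p = 0.0484), a call lost on leaving out any liver other than Bcl6 KO liver 3 or Irs1 KO liver 1. The duct keratin Krt19 differed by 0.48 ± 0.55 (adjusted p = 0.613). Without Bcl6 KO liver 4 or Irs1 KO liver 4 the duct genes higher in Bcl6 KO were 2, and without Bcl6 KO liver 1 the erythroid genes were 2 in each direction. None of 8 sex chromosome genes or 2 genes of other organs passed in the fit of all 10 livers.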
